A study of Rattus norvegicus with 6 samples.

Results

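The 5′-shifted isomiRs of rat microRNAs in cultured Schwann cells were examined. An isomiR is a length or end variant of a microRNA, and a variant that begins 1 or more bases before or after the usual 5′ end carries another seed, the stretch of bases 2 to 8 that pairs with target messages. The members were chosen from counts pooled over all 6 libraries. In each arm of each annotated hairpin, counting only sequences of 20 to 25 nt that matched the hairpin without a mismatch, the start with the most counts was taken as the main start, and every sequence that began elsewhere was a member. Only arms with 100 or more counts in every library were used. This gave 321 listed sequences per hairpin arm (297 distinct sequences) out of 11623 listed sequences in all, in 56 of the 370 hairpin arms with such a sequence. The arms nearest this minimum were the 5p arm of miR-24-2, with 101 counts in its lowest library, on the inside, and the 5p arm of the miR-450b hairpins, with 96, on the outside. Hairpin copies that give the same mature sequence were joined, which left 49 arms, 33 of them 5p and 16 3p. Shifted sequences were listed at 132 starts in 47 of these arms. In miR-218a-5p and miR-486-5p none was listed.

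The libraries came from RSC96, an immortalised rat Schwann cell line, grown for 48 h in high glucose (n = 3 libraries) or in low glucose as the control (n = 3 libraries). The labels give no glucose concentration. The series title speaks of exosomes, the small vesicles that cells release, but the sample labels do not say whether vesicles or whole cells were used, and the extraction text names retina where the other labels name nerve and RSC96. Nothing says that the 3 libraries of a group came from separate cultures, and the p-values then describe no more than how these libraries varied, possibly for technical reasons.

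A microRNA is cut from its hairpin by a pair of enzymes. Drosha cuts near the base of the hairpin and sets the 5′ end of the 5p arm, and Dicer cuts near the loop and sets the 5′ end of the 3p arm. Because target choice rests mostly on the seed, a shift of a single base at the 5′ end can change which messages an arm recognises, while a change at the 3′ end leaves the seed as it was.

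Depth differed between the groups. Total counts per library ran from 963706 to 1354456 in high glucose and from 114615 to 148143 in low glucose, and 71.6% to 77.1% of each total fell on the arms used here. Sequences read fewer than 2 times were not listed, so rare starts are more often missing in low glucose. Of the 297 distinct sequences, 134 were listed in both groups, 154 in high glucose only and 9 in low glucose only. Composition differed too. The 5 markers of Schwann cells and other glia summed to 147624 to 219737 CPM (counts scaled to the same library total) in high glucose and 425143 to 461007 in low glucose, with miR-138-5p at 0. That lower sum is the level of miR-21-5p, at 126656 to 189076 against 417375 to 454176 CPM, while miR-221-3p (5261 to 7224 against 3456 to 3630 CPM) and miR-222-3p (14216 to 22006 against 1958 to 2465 CPM) were higher. The 5 red blood cell markers summed to 833 to 1025 against 3767 to 6483 CPM, and the 5 neuron markers to 15130 to 20296 against 6555 to 7521 CPM, with miR-124-3p at 0, miR-128-3p higher (14190 to 19318 against 1397 to 3045 CPM) and miR-218a-5p lower (791 to 1062 against 4476 to 5191 CPM). The 3 liver markers, among them miR-122-5p, summed to 9119 to 14734 against 3200 to 4572 CPM. The 6 leukocyte markers summed to 1589 to 1805 against 2190 to 2368 CPM with miR-142-3p at 0, the 5 retina markers to 56.3 to 116 against 54.0 to 105 CPM with miR-96-5p at 0, and the 3 muscle markers to at most 54.0 CPM with miR-133a-3p at 0. The part of depth and of these marker differences in the results on shifted starts was not tested. A smaller number of cells of a type and less RNA per cell cannot be told apart in such bulk samples.

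The sequences below are those of the arms whose shifted share differed between the groups by the test used here. The most counted sequence at the main start and at the most used shifted start is shown for each, 5′ to 3′ as DNA letters, with the seed in capitals. They show that each shift of 1 base moves the seed window along the same arm.
miR-29a-3p main start: cTAGCACCatctgaaatcggtt
miR-29a-3p shifted by +1: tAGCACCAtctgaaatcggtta
miR-10b-5p main start: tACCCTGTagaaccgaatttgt
miR-10b-5p shifted by +1: aCCCTGTAgaaccgaatttgt
miR-221-3p main start: aGCTACATtgtctgctgggtttc
miR-221-3p shifted by +1: gCTACATTgtctgctgggtttc
let-7c-5p main start: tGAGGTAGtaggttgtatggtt
let-7c-5p shifted by +1: gAGGTAGTaggttgtatggtt
miR-191a-5p main start: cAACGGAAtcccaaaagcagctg
miR-191a-5p shifted by +1: aACGGAATcccaaaagcagctg
A plus sign means that the sequence begins downstream of the main start, toward the 3′ end, and a minus sign that it begins upstream.

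All 132 shifted starts gave a seed that differed from the seed of their main start. A start at +1 was listed in 46 arms, one at -1 in 33 arms and one at +2 in 24 arms. The most used shifted start was +1 in 30 arms, -1 in 14 and another position in 3. In the median arm 72.7% of the counts at that start ended at the same 3′ base as the main sequence, and in 33 of 47 arms over 50% did. Shifted sequences at +1 were shorter on the whole, with a mean length of 21.3 nt in high and 21.7 nt in low glucose against 22.3 and 22.5 nt at the main starts. Sequences at -1 had mean lengths of 22.2 and 22.1 nt.

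Shifted sequences were a small share of most arms and a large share of a few. The median arm had 1.29% of its counts at shifted starts, as the mean over the 6 libraries. The share was 1% or more in 29 of 49 arms and 10% or more in 10 arms, 5 of the 33 5p arms and 5 of the 16 3p arms. The median was 0.897% over 5p arms and 3.68% over 3p arms. The arms miR-10a-5p, miR-10b-5p, miR-99a-5p and miR-29a-3p together held 67.3% (high glucose) and 64.2% (low glucose) of all shifted counts.

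Over all arms together, shifted starts took 3.41%, 4.36% and 3.49% of the counts in the high glucose libraries and 3.03%, 2.88% and 2.96% in the low glucose libraries. Every high glucose library lay above every low glucose library. The means were 3.76% ± 0.524 (SD, n = 3) and 2.96% ± 0.0762 (SD, n = 3), and the two-sided exact permutation test gave p = 0.1, the smallest that 3 against 3 libraries allow. The sign of this difference depended on how the arms were weighted. With every arm held at the same weight in all libraries the shares were 3.23% in high and 3.90% in low glucose. With all arms weighted equally they were 6.72% and 7.08%, and high glucose was the lower group both times. In both weightings miR-29a-3p entered with a difference of -40.3 percentage points, whose sign turns with the choice of its main start.

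With main starts chosen from pooled counts, the 5p and 3p arms differed in opposite directions, the 3p arms through miR-29a-3p. In miR-29a-3p the start called main was the most used in high glucose, and the +1 start in low glucose. The direction on the 3p arms thus rests on that choice of main start. Drosha as a rule sets the 5′ end of the 5p arms. Their shifted share was 3.08%, 3.999% and 3.25% in high glucose and 1.97%, 1.98% and 2.01% in low glucose. Among these arms is miR-1839-5p, whose gene has the RefSeq symbol Scarna15. How its 5′ end is set was not tested. On the 3p arms, whose 5′ end Dicer sets, it was 7.42%, 8.92% and 6.63% in high glucose and 12.7%, 12.5% and 13.0% in low glucose. Neither pair of groups overlapped, and each exact permutation test gave p = 0.1 (n = 3 against 3 libraries). Without miR-29a-3p, an arm left out after its values were seen, the 3p arms had 4.63%, 6.49% and 4.60% in high and 5.36%, 5.63% and 5.86% in low glucose, and the groups overlapped (exact permutation p = 0.6). Without miR-10a-5p and miR-10b-5p the 5p arms had 1.75%, 2.41% and 1.89% in high and 1.37%, 1.36% and 1.37% in low glucose, still with no overlap. Shifts to +1 made up 69.9% of shifted counts in high and 67.6% in low glucose, and shifts to -1 made up 25.6% and 29.3%.

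The first base of the sequences changed with the shift. Argonaute proteins, which hold the microRNA, favour U at that position, written T here. In high and low glucose, T began 82.3% and 86.8% of main-start counts, but 9.50% ± 1.91 and 32.4% ± 1.39 (SD, n = 3 each) of shifted counts. A began 70.8% and 54.9% of the shifted counts. Most of the shifted counts that began with T belonged to miR-29a-3p, 60.4% of them in high glucose and 72.3% in low glucose. The +1 start of that arm, counted as shifted, is its RefSeq start and was its most used start in every low glucose library.

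Whether an arm used its shifted starts more in 1 group was tested arm by arm, as the odds of a shifted against a main start. Library size and the arm's own abundance drop out of such a ratio. Sequences read fewer than 2 times were not listed, so the odds can still depend on depth where shifted counts are few. In 4 arms no shifted count was listed in any low glucose library. By edgeR's quasi-likelihood test with Benjamini-Hochberg adjustment at 0.05, the shifted share was higher in high glucose in 3 of 47 arms (miR-221-3p, let-7c-5p and miR-191a-5p) and lower in 2 (miR-29a-3p and miR-10b-5p), which is 10.6% of the arms tested, 6.38% higher and 4.26% lower. With the replicate number as a block, 7 arms were higher and 2 lower (19.1%). The 4 added arms were let-7b-5p, miR-125b-5p, miR-21-5p and miR-27b-3p. The shares of the groups did not overlap in 20 of 47 arms (42.6%) and overlapped in 27. High glucose was above in 14 arms (29.8%) and below in 6 (12.8%). Among the 14 were let-7b-5p, miR-122-5p and miR-185-5p, with no shifted count listed in low glucose. At the mean share of the high glucose libraries, only 1.2 to 2.1 counts per low glucose library would stand in these arms. The median log2 odds ratio of high over low glucose was 0.46.

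The largest difference in share was in miR-29a-3p, a microRNA known for targeting collagen messages. Its shifted share was 37.7%, 32.5% and 33.6% in the high glucose libraries and 73.5%, 76.6% and 74.6% in the low glucose libraries, out of 767 to 6246 counts per library. Every high glucose library lay below every low glucose library, with means of 34.6% ± 2.74 and 74.9% ± 1.59 (SD, n = 3 each). The log2 odds ratio was -2.50 (SE 0.28, edgeR adjusted p = 0.00105). The start called main from pooled counts lies 1 base upstream of the RefSeq start, and the +1 start is the RefSeq start. Its sequence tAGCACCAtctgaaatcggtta was at the most used start in all 3 low glucose libraries, while the upstream start was the most used in all 3 high glucose libraries. The pooled choice of the main start thus followed the deeper high glucose libraries, and with equal weight for each library the +1 start becomes the main one and the same difference has the opposite sign (2.49, edgeR adjusted p = 0.0011).

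Both 5′ starts of miR-29a-3p differed in level. Levels of single starts are in CPM scaled by edgeR over the exact sequences of the starts tested. They are not on the scale of the marker CPM above. At the main start the level was 4403, 4641 and 3572 CPM in high glucose and 2262, 1692 and 2065 CPM in low glucose, which is 2.10-fold higher (log2 fold change 1.07, SE 0.18, edgeR adjusted p = 0.000194). At +1 it was 2667, 2238 and 1807 CPM against 6249, 5543 and 6037 CPM, which is 2.66-fold lower (log2 fold change -1.41, SE 0.18, edgeR adjusted p = 1.68e-05). The groups were apart at either start, so the 2 seeds of this arm differed in opposite directions between the groups. Of the +1 counts 35.5% ended at the 3′ base of the main sequence, and the most counted +1 sequence ended 1 base beyond it. The main sequence lies at chr4:60617969-60617990 on the minus strand of GRCr8, bases 53 to 74 of the 88 nt hairpin of the Mir29a gene.

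The other arm with a lower shifted share was miR-10b-5p, a microRNA encoded among the Hox genes. Its shifted share was 8.41%, 8.19% and 9.97% in high glucose and 20.1%, 20.8% and 20.1% in low glucose, with means of 8.86% ± 0.973 and 20.3% ± 0.442 (SD, n = 3 each). All high glucose libraries were below all low glucose libraries, and the log2 odds ratio was -1.40 (SE 0.14, edgeR adjusted p = 0.00102). Both starts were higher in high glucose in level, the main start 6.65-fold (log2 fold change 2.73) and the +1 start aCCCTGTAgaaccgaatttgt 2.50-fold (log2 fold change 1.32). The lower share of the shifted start thus goes with a larger difference at the main start, not with a lower level at +1. The main sequence lies at chr3:80035884-80035905 on the plus strand of GRCr8, within the span of the gene Hoxd4. RefSeq places the start of miR-10b-5p 2 bases further downstream, where 41 counts were listed over all libraries.

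Its paralog miR-10a-5p has the same main seed ACCCTGT and the same +1 seed CCCTGTA.
miR-10a-5p main start: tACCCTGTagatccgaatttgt
miR-10a-5p shifted by +1: aCCCTGTAgatccgaatttgt
Its shifted share was 16.1%, 16.1% and 16.6% in high glucose and 20.8%, 24.3% and 19.3% in low glucose. These groups did not overlap either, but the log2 odds ratio of -0.49 (SE 0.16) did not pass the test (edgeR adjusted p = 0.112). The main start was 5.51-fold and the +1 start 3.95-fold higher in high glucose. The sequence lies at chr10:81779730-81779751 on the plus strand of GRCr8.

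Of the 3 arms called with a higher shifted share in high glucose, miR-221-3p had the largest odds ratio. It is a microRNA known for repressing the cell cycle inhibitor p27 and is raised in dividing Schwann cells after nerve injury. Its +1 form begins with the second base of the main sequence and ends, for 68.5% of its counts, at the same 3′ base. The shifted share was 5.42%, 7.61% and 4.03% of 3915, 4312 and 4858 counts in high glucose. In low glucose 2 of 295, 3 of 358 and 0 of 241 counts were shifted, although 16.8, 20.4 and 13.7 would stand there at the mean share of the high glucose libraries. The log2 odds ratio was 3.39 (SE 0.69, edgeR adjusted p = 0.0215). It rests on few low glucose counts and did not pass without high glucose replicate 1 (adjusted p = 0.0606) or low glucose replicate 2 (adjusted p = 0.0641). The main sequence lies at chrX:6023246-6023268 on the plus strand of GRCr8.

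miR-222-3p, which is made from the same transcript and has the same main seed, did not pass the test for its shifted share. The share was 2.11%, 3.84% and 3.00% in high glucose and 1.96%, 1.32% and 2.55% in low glucose, and the groups overlapped (log2 odds ratio 0.60, SE 0.49, edgeR adjusted p = 0.485). At +1 there were 175, 397 and 207 counts in high glucose and 0, 0 and 2 in low glucose, or 271, 437 and 215 against 0, 0 and 21.2 CPM. At +2 the level was 229, 173 and 217 CPM in high glucose and 25.6, 22.97 and 31.8 CPM in low glucose, 3 counts in each low glucose library. Both levels passed the test (edgeR adjusted p = 2.29e-05 at +1 and 0.000171 at +2). Both starts could pass the filter on low counts through the high glucose libraries alone, and had at most 3 counts in a low glucose library. Their p-values are thus given as a description. The main start was 9.81-fold higher (edgeR adjusted p = 2.76e-08).

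Over the 6 libraries, let-7c-5p had the highest mean CPM of the let-7 arms used here. In every low glucose library, however, let-7g-5p and let-7f-5p had more counts. The shifted share of let-7c-5p was small but rested on many reads in high glucose, with 1206, 2789 and 2333 shifted counts. These are shares of 1.41%, 2.12% and 1.497%. Low glucose had 10, 16 and 12 shifted counts, shares of 0.533%, 0.866% and 0.756%. No library of one group fell within the other (1.67% ± 0.387 and 0.718% ± 0.169, SD, n = 3 each), and the log2 odds ratio was 1.22 (SE 0.25, edgeR adjusted p = 0.0215). It did not pass without low glucose replicate 1, 2 or 3 (adjusted p = 0.0603, 0.0641 and 0.0896). Of the 6 let-7 arms used here 1 passed the test and 5 did not, or 2 and 4 with the replicate block. In let-7f-5p the share was 0.234%, 0.267% and 0.302% against 0.396%, 0.280% and 0.359%, with overlap. In let-7g-5p it was 1.15%, 0.525% and 0.979% against 0.734%, 0.827% and 1.02%, also with overlap.

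miR-191a-5p, from a hairpin within the span of the gene Dalrd3 (chr8:118142641-118142663 on the plus strand of GRCr8), had shifted shares of 19.2%, 23.9% and 22.3% in high glucose and 9.28%, 10.4% and 12.5% in low glucose. High glucose was above low glucose in all libraries (21.8% ± 2.41 and 10.7% ± 1.63, SD, n = 3 each). The log2 odds ratio was 1.22 (SE 0.28, edgeR adjusted p = 0.0312), resting on 31, 36 and 27 shifted counts in low glucose. The level of the main start did not pass the test (2014 ± 264 and 2318 ± 295 CPM, SD, n = 3 each, edgeR adjusted p = 0.347), while the +1 start aACGGAATcccaaaagcagctg was at 539, 572 and 541 CPM in high glucose and 265, 276 and 286 CPM in low glucose (log2 fold change 1.00, edgeR adjusted p = 0.00194). The call on the share was lost without high glucose replicate 2 or 3 (adjusted p = 0.0570 and 0.0815) and without low glucose replicate 1, 2 or 3 (adjusted p = 0.173, 0.149 and 0.0622).

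Among the 4 arms added by the replicate block was miR-27b-3p, whose shifted share was 4.14%, 4.50% and 5.39% in high glucose and 2.55%, 1.60% and 1.03% in low glucose. All 3 high glucose libraries were above all 3 low glucose libraries (log2 odds ratio 1.49, SE 0.40, edgeR adjusted p = 0.0567, and 0.0471 with the block). In miR-125b-5p, an abundant microRNA of neural tissue, the share was 0.791%, 0.966% and 1.84% against 0%, 0.264% and 0.275%. The low glucose shares rest on 0, 6 and 4 shifted counts. The log2 odds ratio was 2.66 (SE 0.75, edgeR adjusted p = 0.0652, and 0.000867 with the block). In let-7b-5p no shifted count was listed in any low glucose library, where fewer than 2 would stand at the mean share of the high glucose libraries (edgeR adjusted p = 0.121 without the block).

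miR-21-5p, the most abundant microRNA of these libraries, had a shifted share of 0.627%, 1.12% and 0.690% in high glucose and 0.462%, 0.450% and 0.496% in low glucose. There was no overlap, and the log2 odds ratio of 0.75 (SE 0.25) did not pass without the block (edgeR adjusted p = 0.112, and 0.0471 with it). Its starts did not move together. The main start was 2.11-fold and the +1 start 2.14-fold lower in high glucose (edgeR adjusted p = 0.000297 and 0.000188), while the +2 start was 3.21-fold higher (log2 fold change 1.68, SE 0.38, edgeR adjusted p = 0.00158). The +2 start was at 767, 893 and 370 CPM in high glucose and 154, 153 and 339 CPM in low glucose, so the lowest high glucose library lay close to the highest low glucose library.

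Several arms had a large shifted share in both groups. They were chosen for that share, which is given as a description. miR-101a-3p and miR-101b-3p are paralogs from separate hairpins.
miR-101a-3p main start: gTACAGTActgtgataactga
miR-101a-3p shifted by +1: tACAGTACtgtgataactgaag
miR-101b-3p main start: tACAGTACtgtgatagctgaag
miR-101b-3p shifted by -1: gTACAGTActgtgatagctga
Both arms use the same pair of starts, with the seeds TACAGTA and ACAGTAC, and the main start of one is the shifted start of the other. The upstream start of miR-101a-3p exceeded its RefSeq start, which is the +1 start, in pooled counts, and the +1 start was the most used in low glucose replicates 2 and 3.

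The share at the shifted starts of miR-101a-3p was 43.2%, 45.8% and 46.8% in high glucose and 49.0%, 54.4% and 54.5% in low glucose (log2 odds ratio -0.43, SE 0.25, edgeR adjusted p = 0.343). The groups did not overlap, but the odds ratio did not pass. In miR-101b-3p it was 32.2%, 37.2% and 33.4% in high glucose and 31.4%, 35.2% and 32.8% in low glucose, and the groups overlapped (edgeR adjusted p = 0.894). All 4 starts were lower in level in high glucose, by 1.59-fold and 2.14-fold for miR-101a-3p at its main and +1 starts and by 1.81-fold and 1.73-fold for miR-101b-3p at its main and -1 starts (edgeR adjusted p = 0.0102, 0.000371, 0.000878 and 0.00897). The main sequences lie at chr5:121081692-121081712 on the minus strand and at chr1:236273982-236274003 on the plus strand of GRCr8, the second within the span of the gene Rcl1.

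miR-140-3p, from a hairpin within the span of Wwp2 (chr19:52375354-52375374 on the plus strand of GRCr8) and best known in cartilage, is another arm whose main start is not the RefSeq start. Here the RefSeq start is the -1 start and is the less used one.
miR-140-3p main start: aCCACAGGgtagaaccacgga
miR-140-3p shifted by -1: tACCACAGggtagaaccacggaca
The shifted share was 44.7%, 37.3% and 33.0% in high glucose and 24.8%, 22.5% and 25.9% in low glucose. There was again no overlap, with a log2 odds ratio of 0.94 (SE 0.34) that did not pass (edgeR adjusted p = 0.121). The main start was lower in level in high glucose (565 ± 43.5 and 1169.8 ± 247 CPM, SD, n = 3 each, log2 fold change -1.05, edgeR adjusted p = 0.000641), and the -1 start was at 350 ± 102 and 352 ± 87.8 CPM (edgeR adjusted p = 0.985).

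miR-99a-5p, an abundant arm of the miR-99 and miR-100 family, mostly shifted upstream.
miR-99a-5p main start: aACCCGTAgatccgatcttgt
miR-99a-5p shifted by -1: aAACCCGTagatccgatcttgt
Its shifted share was 11.99%, 12.3% and 10.5% in high glucose and 13.1%, 12.8% and 13.0% in low glucose (log2 odds ratio -0.18, SE 0.12, edgeR adjusted p = 0.402), and 99.7% of the -1 counts ended at the 3′ base of the main sequence. High glucose lay below low glucose in all libraries by a small margin. In miR-1839-5p, whose most used shifted start was +1 (aGGTAGATagaacaggtcttg against aAGGTAGAtagaacaggtcttg), the share was 18.98%, 26.7% and 26.4% against 23.7%, 26.3% and 18.5%, with overlap.

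miR-27a-3p differed from the other arms in the size of its shift. Its most used shifted start lay 5 bases upstream of the main start, and none of its counts ended at the 3′ base of the main sequence.
miR-27a-3p main start: tTCACAGTggctaagttccg
miR-27a-3p shifted by -5: tCGTGTTCacagtggctaagttc
The shifted share was 13.9%, 7.82% and 6.13% in high glucose and 15.7%, 23.4% and 16.9% in low glucose, without overlap (log2 odds ratio -1.24, SE 0.47, edgeR adjusted p = 0.121), with 19 to 32 shifted counts per low glucose library. Counting only shifts of 1 to 3 bases, none was left in low glucose and the sign turned.

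Over all lists of related microRNAs, 4 of 33 arms passed (12.1%), near the 10.6% of all arms tested, and 7 of 33 (21.2%) with the replicate block, near its 19.1%. They were 1 of 6 let-7 arms (higher), 1 of 7 in miR-10, miR-99, miR-100 and miR-125 (lower), 1 of 2 in miR-221 and miR-222 (higher) and the single miR-29 arm (lower). None passed of the 5 arms of miR-23, miR-24 and miR-27, or of the 2 arms each of miR-30, of miR-146, of miR-101 and of miR-17 and its paralogs. With the block 1 of those 5 (miR-27b-3p), 2 of the 6 let-7 arms and 2 of the 7 arms of the miR-10 list (miR-125b-5p higher, miR-10b-5p lower) passed. Of microRNAs known for more than a single 5′ end, 5 had an eligible arm (miR-101a-3p, miR-101b-3p, miR-140-3p, miR-10a-5p and miR-10b-5p). Their median shifted share was 31.4%, against 1.29% over all arms, and 1 of the 5 passed (lower). As these arms were listed for having more than a single 5′ end, that median is a description. In miR-101a-3p and miR-140-3p the most used shifted start is the RefSeq start itself. In miR-25-3p the share was 3.04%, 5.14% and 4.04% in high and 2.01%, 2.30% and 2.03% in low glucose without passing (edgeR adjusted p = 0.166). In miR-30d-5p, miR-30a-5p and miR-146b-5p the groups overlapped at shares under 3%.

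Of 132 shifted starts, 15 carried the seed of a mature rat microRNA in the RefSeq table, which holds 693 mature sequences with 585 seeds. At 4 of these the seed was that of the arm's own RefSeq start, at 10 that of another family, and at 1, the +2 start of miR-10a-5p, that of its paralog. The last 11 together held 6.93% of all shifted counts. Of them, 6 were the +1 starts of let-7 arms, whose seed AGGTAGT is that of miR-196a-5p, miR-196b-5p and miR-196c-5p, microRNAs from the Hox clusters. Over the let-7 arms, +1 sequences had 1340, 2903 and 2433 counts in high glucose and 33, 41 and 42 in low glucose, 0.896% ± 0.232 and 0.334% ± 0.0711 (SD, n = 3 each) of let-7 counts. Most were of let-7c-5p (gAGGTAGTaggttgtatggtt), with 6222 of 6792 pooled counts. The single arms did not all go that way. In let-7f-5p the +1 share was 0.143%, 0.267% and 0.143% in high and 0.396%, 0.280% and 0.359% in low glucose. In let-7i-5p it was 0.195%, 0.202% and 0.0473% against 0.407%, 0.375% and 0.299%, again lower without overlap. In let-7g-5p the means were 0.288% and 0.284%. The mean was higher in high glucose in let-7c-5p. It was also higher in let-7a-5p and let-7b-5p, but there no +1 count was listed in any low glucose library. Sequences read fewer than 2 times were not listed, so such rare starts can be missing at the low glucose depth. The miR-196 hairpins themselves had 28 counts in all, listed in high glucose replicates 1 and 2.

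The other shared seeds were less used. The +2 start of miR-423-5p, aGGGGCAGagagcgagactttt, had the seed of miR-326-5p and 304 pooled counts. The +2 start of miR-10a-5p, cCCTGTAGatccgaatttgt, had the seed of the RefSeq form of miR-10b-5p and 258 counts. The +1 start of miR-24-3p, gGCTCAGTtcagcaggaaca, had the seed of miR-222-5p and 96 counts. The +1 starts of miR-27b-3p and miR-20a-5p, with the seeds of miR-128-3p and of miR-105 and miR-291a-3p, had 5 and 3 counts. A shared seed is a match of letters, and targets were not measured.

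The levels of single starts were compared over 245 starts of all annotated arms, of which 59.2% were called (edgeR's quasi-likelihood test, Benjamini-Hochberg adjusted p under 0.05), 38.4% higher and 20.8% lower in high glucose. Of the 132 shifted starts 55 passed the filter on low counts, and of these 22 were higher, 8 lower and 25 not called, with a median log2 fold change of 0.52. Of the 49 main starts 17 were higher, 19 lower and 13 not called, with a median of -0.12, and the median of all 245 starts was 0.47. Shifted starts could pass the filter through the deeper high glucose libraries alone, so these counts are a description of the starts that passed.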

How the data were processed

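Small RNA libraries of RSC96 cells, 6 in all and 3 per group, were used. The deposited files list, per the file headers, each sequence aligned to a hairpin with its read count, position, length and mismatches. The authors' counts are raw, hold no sequence read fewer than 2 times and divide the reads of a sequence equally over its hairpins, in whole numbers. The minimum of 100 applies to each hairpin. Cutadapt 1.9.3 and Novoalign 3.02.12 are named in the submitters' processing notes, with no roles. Neither genome build nor hairpin database is named in those notes, the labels or the headers. No strand or molecular identifier is stated, so counts are reads, not molecules.

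Exact sequences of 20 to 25 nt on annotated hairpins were summed per arm and start. Hairpin copies sharing the most counted main-start sequence were joined. Mature names and GRCr8 positions come from matching hairpin sequences to RefSeq's table for that build. Markers were matched on hairpin name and RefSeq mature sequence. Gene spans come from RefSeq, and exon or intron was not assigned. Groups and replicate numbers come from the sample titles. The members and lists were chosen with earlier results of these data known.

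The start choice per arm was tested with edgeR 4.0.16 (R 4.3.3, quasi-likelihood, robust) on main and shifted counts, with a term for each library, a term for shifted and shifted by high glucose. Adjustment was over 47 arms. The start level was tested with edgeR, TMM scaling and filterByExpr (minimum count of 10) over 245 starts. The CPM of starts carry this scaling, while the marker CPM are relative to each library's total counts. Library shares were compared by two-sided exact permutation tests. DESeq2 1.42.0 and limma 3.58.1 (pseudocount 0.5) were alternatives, as were other lengths, minimums, scalings, thinning to 114615 counts per library and leaving out each library. The fits were tested on simulated data. The arms named were the 10 with the highest shifted share, those called, the 10 most abundant, those whose seed or start differs from RefSeq as stated, and the 2 most abundant of each list. Other arms named, such as miR-125b-5p, were chosen after their values were seen.

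Deviations of same-numbered libraries from their group means in start choice had correlations of 0.344, 0.288 and 0.179 across arms, each over 0.1. High glucose replicate 1 and low glucose replicate 3, with unlike numbers, also passed 0.1 with 0.133. The replicate numbers were used as a block in an alternative fit of that test. Calls and p-values are without the block unless stated. The labels do not say what a number shares.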

Additional observations from a re-analysis of the deposited data

How the results depend on the processing

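miR-10b-5p and miR-29a-3p passed the test of start choice in all alternatives run, with the sign of miR-29a-3p set by the definition of the main start. Higher arms numbered 3 as reported, 5 with lengths of 18 to 26 nt, 0 with arms of 20 or more counts (78 arms tested), 7 after thinning all libraries to one depth, 5 with DESeq2, 7 with limma and 7 with the replicate block. They ranged from 0 to 3 when a library was left out, with 0 without low glucose replicate 2 and 1 without low glucose replicate 3. Lower arms numbered 1 with the main start chosen by equal weight of libraries, and 2 whichever library was left out. let-7c-5p and miR-191a-5p were also lost when mismatched sequences were counted (edgeR adjusted p = 0.0503 each). The difference in library share, 0.798 percentage points as reported, was 1.45 with main starts by equal weight, -0.366 with arms weighted equally and -0.678 with arm composition fixed, and 0.496 to 0.969 without each library. Other signs turned for miR-29a-3p with main starts by equal weight (2.49) and for miR-101a-3p with mismatched sequences counted (0.32). That of miR-27a-3p turned with shifts of 1 to 3 nt (5.61). The level difference of miR-140-3p at -1 was -0.01 as reported. Its sign turned with a mean of 10 or more CPM (0.034), without high glucose replicate 3 (0.23) and without low glucose replicate 1 (0.12). Without low glucose replicate 2 it kept its sign at -0.24. Of shifted starts, 12 were higher in level after thinning (29 tested) and 5 lower with the replicate block. Without each library 13 to 20 were higher and 5 to 8 lower, with 13 higher without high glucose replicate 2 (37 tested) and 5 lower without high glucose replicate 3 (38 tested). For the level, same-numbered libraries had correlations of 0.144, 0.0136 and 0.110, so the numbers were not taken as pairs there. Upper quartile scaling moved the median level difference by -0.22, and with it the main and -1 starts of miR-99a-5p were no longer called. The cause of these changes was not tested. Low glucose depth limits arms with few shifted counts.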

Other observations

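A further 45 arms, with hairpin copies summed, reached 100 counts in every high glucose library but not in every low glucose library, and 8 of them had a shifted share of 10% or more there. In miR-361-3p, 39.7%, 40.9% and 45.4% of the counts were shifted, mostly to -1, out of 2509 to 3470 counts per library. In miR-423-3p the share was 21.6%, 21.4% and 22.0%, also mostly at -1. In miR-28-3p it was 19.8%, 15.9% and 22.4%, mostly at +1. In low glucose these 3 arms had at most 93 counts in any library, under the minimum of the comparison made here.

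Sequences with a mismatch or indel were left out of the shares above. They made up 15.8% ± 1.22 of the counts at shifted starts in high glucose and 15.9% ± 0.0828 in low glucose, against 10.9% ± 0.0438 and 9.64% ± 0.418 at main starts (SD, n = 3 each). Mismatches at the last 2 bases made up 10.7% and 11.3% at shifted starts and 9.53% and 8.69% at main starts.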
